A study of Brassica napus with 2 samples.

Results

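Plants take sulfate from the soil and turn its sulfur into cysteine and methionine, and *Brassica* plants also build glucosinolates from methionine. The transcripts of these pathways were examined in seeds of *Brassica napus* (oilseed rape). A unigene, which is a transcript assembled from the reads without a genome, was included when the authors had assigned it a *B. napus* gene and its best Swiss-Prot protein description named a sulfate transporter, an enzyme of sulfate assimilation, an enzyme of cysteine, methionine or S-adenosylmethionine (SAM) metabolism, or an enzyme of glucosinolate synthesis from methionine. Of 50366 unigenes, 94 met this rule, and they were assigned to 78 genes. Of these 94, 79 were described as enzymes or transporters of the pathways, and 15 were taken in by a word of the description alone, such as methionine aminopeptidases. The names below are those of the best protein hit and do not separate close copies of a gene.

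Whole seeds of 2 lines were sequenced, with 1 library per line. The brown-seeded line Cy2B (genotype *yy*) and the yellow-seeded line Cy2Y (genotype *YY*) are near-isogenic, since the yellow line arose from the brown one as a spontaneous dominant mutant. Both were grown in the field, and the seeds were 26 days old, counted from flowering in the sample labels. The number of plants or seeds in a library was not given. The library totals were 23575447 reads in the brown and 23236592 in the yellow library.

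Sulfate enters cells through SULTR proteins and is activated by ATP sulfurylase. Adenylylsulfate reductase (APR) and sulfite reductase then reduce it to sulfide, which cysteine synthase joins to O-acetylserine made by serine acetyltransferase. Cysteine gives methionine by way of cystathionine, and most methionine is turned into SAM, the methyl donor of the cell. For aliphatic glucosinolates, the defence compounds of mustards and rape, the methionine side chain is lengthened by BCAT4 and the MAM enzymes before CYP79F1 starts the core structure. In *Arabidopsis*, much of the glucosinolate in seeds is imported from the maternal plant, and the MYB28 and MYB29 proteins switch on the aliphatic pathway.

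Most of these transcripts were at nearly the same level in brown and yellow seeds. The 94 unigenes held 0.662% of all reads in the brown and 0.646% in the yellow library, and their summed RPKM (reads scaled to unigene length and library total) was 3540 and 3499. Of the 49 with at least 100 reads over both libraries, 46 (93.9%) differed by less than 1.5-fold, beside 91.5% of the 16789 unigenes with an assigned gene and as many reads. The median log2 ratio of yellow over brown, with 1 read added per library, was 0.00 over the 68 unigenes with at least 20 reads, with 34 above and 34 below 0. Over all 29239 unigenes with at least 20 reads the median was also close to 0, at -0.001.

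The reads of each unigene were tested against the library totals with Fisher's exact test (two-sided), and p-values were adjusted by Benjamini-Hochberg over the whole table. A difference was called when it passed an adjusted p of 0.05 and exceeded 2-fold. Since each line has 1 library, the test sets one library against the other, not one line against the other, and the spread between seed samples is unknown. Intervals in parentheses are 95% exact binomial intervals of the ratio of yellow over brown and cover counting error only. Of the 94 unigenes, 5 (5.32%) were called higher in yellow seeds and 0 lower, where the shares of all unigenes were 3.28% and 1.47%, and of those with an assigned gene 2.69% and 1.32%. Of the 5, 3 had no read in brown seeds and 8 or 9 in yellow. Among the 68 unigenes with at least 20 reads, 2 (2.94%) were called higher, and 0 lower, beside 2.45% and 1.11% of all unigenes with an assigned gene and at least 20 reads. When edgeR's exact test was run with an assumed coefficient of variation of 0.2 between seed samples, 1 member, SULTR3;3 comp48226_c0, was called higher and 0 lower, beside 0.691% and 0.195% of all unigenes. The other 4 calls were lost at an assumed coefficient of 0.1 already. By the adjusted p alone, without the 2-fold threshold, 11 were higher (11.7%) and 8 lower (8.51%), beside 8.57% and 7.30% of all unigenes and 10.9% and 10.6% of those with an assigned gene. These shares lay near those of other unigenes, and what follows is about single genes.

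**Figure D1:**
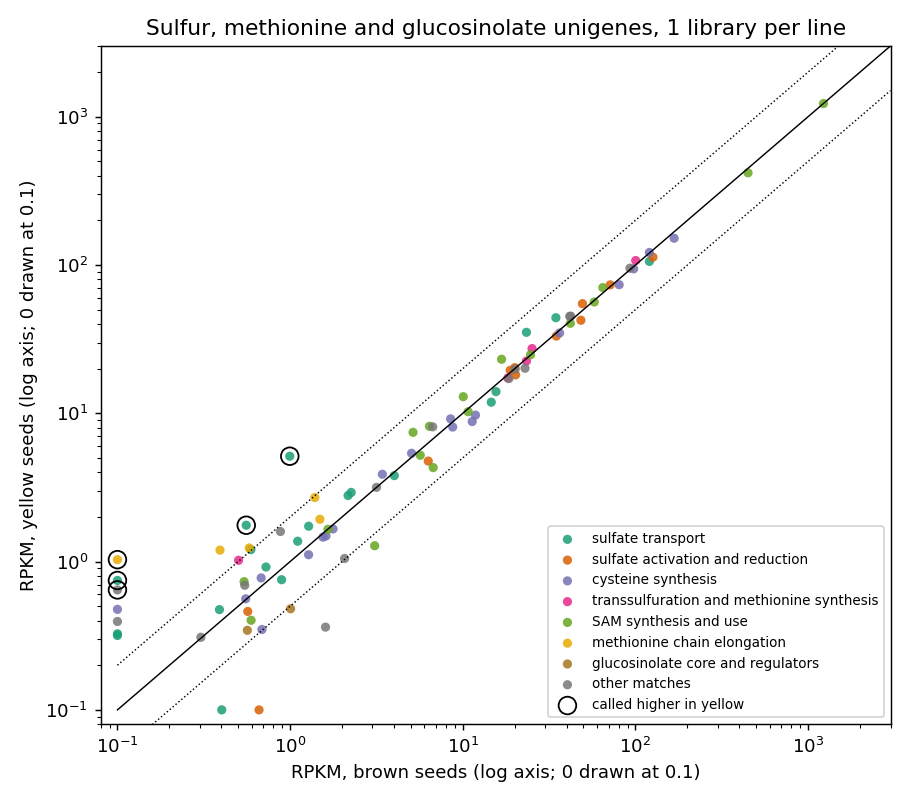
RPKM of each of the 94 unigenes in brown (x axis) and yellow seeds (y axis), both on log axes, coloured by role, with values of 0 drawn at 0.1. The solid line marks equal values and the dotted lines a 2-fold difference. Above about 10 RPKM every point lies between the dotted lines, and the 5 circled unigenes called higher in yellow seeds are all under 6 RPKM.

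The levels spanned a wide range. SAMDC3, which encodes a SAM decarboxylase that channels SAM into polyamines, was the most abundant by length, at 1228 RPKM in the brown and 1227 in the yellow library. The median unigene had a mean of 5.33 RPKM, and 26 of the 94 had fewer than 20 reads over both libraries, so that only large differences could be seen in them. Of the genes, 67 were represented by a single unigene and 11 by several pieces, 27 in all, which share a source and are not independent. By genome, 40 unigenes were assigned to A and 46 to C chromosomes, and 8 to unplaced sequence. In 14 of the 94 the unigene was longer than the whole assigned gene, so that part of its reads may come from outside that gene; those of SAMDC3, METK3, APR3 and comp44794_c0 described below are among them.

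Among the sulfate transporters, the 2 unigenes of SULTR3;3 stood out as higher in yellow seeds. SULTR3 proteins are a subfamily of sulfate transporters, and in *Arabidopsis* they take part in sulfate uptake into chloroplasts and in moving sulfate within the developing seed. The first, comp48226_c0, was assigned to a gene at chrC05:12122131-12126305 of the Darmor-bzh genome. It had 37 reads in the brown and 188 in the yellow library, or 0.995 and 5.14 RPKM, a ratio of 5.16 (3.61 to 7.55) with an adjusted p of 2.44e-24 by Fisher's exact test. This was the largest ratio among the unigenes with at least 100 reads. The second, comp35446_c0 at chrA09:22443921-22450721, had 9 and 28 reads, a ratio of 3.16 (1.45 to 7.60) with an adjusted p of 0.0134 by the same exact test. The copies of the A and the C genome were thus both called higher in the yellow library, at low levels. The call of the A09 copy was lost with an assumed coefficient of variation of 0.1 (edgeR's exact test, adjusted p = 0.122).

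SULTR3;4 was higher as well, by less than 2-fold. Its A01 gene (chrA01:19740688-19744487) was assembled in 2 pieces. The longer piece, comp54924_c1, rose from 1107 to 1390 reads, with a ratio of 1.27 (1.18 to 1.38). The shorter, comp54924_c0, rose from 534 to 792 reads, a ratio of 1.5 (1.35 to 1.68). Another unigene, on A05, had 4 and 8 reads. Over all 10 unigenes of SULTR group 3, the reads summed to 2496 in the brown and 3126 in the yellow library, a ratio of 1.27 (1.21 to 1.34). Of these, SULTR3;4 held 1645 and 2190, so the sum mostly follows that transporter. SULTR3;1 was the exception among those with many reads: comp53631_c0 on A03 had 786 and 696 reads, a ratio of 0.898 (0.810 to 0.996) that did not pass the test (exact adjusted p = 0.167). Its other 3 unigenes had between 4 and 12 reads in either library and were not called, and SULTR3;2 had 0 and 2.

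The transporters of groups 1 and 2 lay on the other side. SULTR2;2, of a low-affinity group that in *Arabidopsis* works in vascular tissue, was the most abundant transporter at 120 RPKM in the brown and 106 in the yellow library. Its unigene comp48642_c0 (chrC06:36033447-36037603) fell from 7958 to 6882 reads, a ratio of 0.877 (0.849 to 0.906). SULTR1;2, the main high-affinity transporter of *Arabidopsis* roots, was assigned to the neighbouring gene, 9516 bp further on the same chromosome. It fell from 889 to 712 reads, a ratio of 0.813 (0.735 to 0.898). Both differences passed the test, with exact adjusted p-values of 7.68e-14 and 0.000484, and both were well under 2-fold. SULTR1;3 had 0 and 2 reads.

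In *Arabidopsis*, SULTR4 proteins release sulfate from the vacuole. The 4 unigenes of the A10 gene for SULTR4;1 summed to 76 reads in the brown and 84 in the yellow library, and none was called. Of the 3 unigenes of the C03 gene for SULTR4;2, comp23942_c1 was called higher, with 0 and 9 reads. The yellow level was at least 3.04-fold higher, taking 3 reads as the limit for the 0 (exact adjusted p = 0.0153), and the interval of the ratio, which also covers the counting error of the 9 reads, began at 2.00. The gene's 3 pieces together had 23 and 37 reads, a ratio of 1.63 (0.945 to 2.88), and the gene as a whole was not called. All 20 transporter unigenes summed to 224 RPKM in the brown and 235 RPKM in the yellow library. Their reads went the other way, from 11442 to 10843, a ratio of 0.961 (0.936 to 0.987). The direction of the sum thus depended on the measure.

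**Figure D2:**
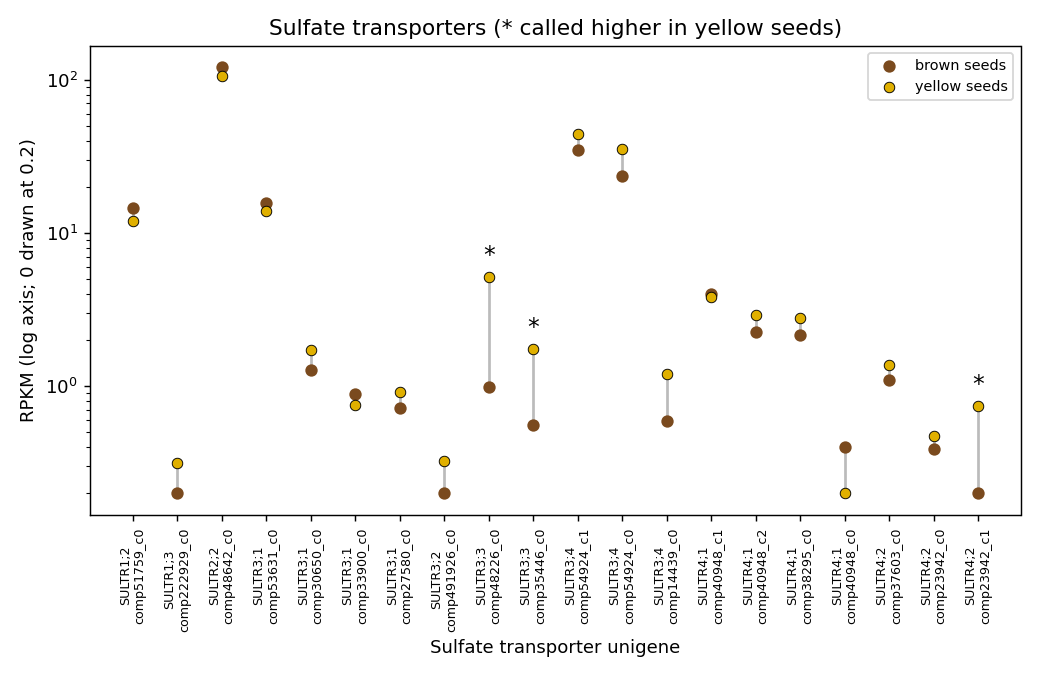
RPKM (log axis, 0 drawn at 0.2) of the 20 sulfate transporter unigenes in brown and yellow seeds, 1 library each, joined by a grey line. The 3 unigenes called higher in yellow seeds carry a star. SULTR2;2 is highest in both libraries and lower in yellow seeds, and both SULTR3;3 unigenes rise from under 1 RPKM.

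None of the 11 unigenes for sulfate activation and reduction was called. By adjusted p alone 1 was higher and 2 lower, beside 10.9% and 10.6% of unigenes with an assigned gene. Of the 3 unigenes of APR, which makes sulfite and is often the controlling step of the pathway, 2 were lower in yellow seeds by adjusted p alone. APR3 (comp53487_c0, chrA03:22895925-22897505) was the most abundant of the group, at 126 and 113 RPKM. It fell from 7017 to 6186 reads, a ratio of 0.894 (0.864 to 0.926, exact adjusted p = 4.33e-09). The longer piece of APR2, comp46673_c1, fell from 1484 to 1283 reads, a ratio of 0.877 (0.813 to 0.946), and the shorter one had 208 and 184. The 3 APR unigenes together gave a ratio of 0.892 (0.864 to 0.919).

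Of the 2 unigenes of ATP sulfurylase, which activates sulfate at the step before, 1 was higher by adjusted p alone. APS1 (comp52076_c0) had 2947 and 2985 reads, a ratio of 1.03 (0.976 to 1.08). APS2 (comp51635_c0, chrC05:9378543-9383553) rose from 2092 to 2294 reads, a ratio of 1.11 (1.05 to 1.18, exact adjusted p = 0.00444). Adenylyl-sulfate kinase, AKN1, diverts activated sulfate to the sulfate donor used in the last step of the glucosinolate core. Its A09 unigene had 601 reads in either library. The other 2 pieces, of an A05 gene, had 5 and 4 reads, and 6 and 0 reads. The 3 APR-like unigenes summed to 2223 and 2169 reads. One of them, comp47625_c0, was described as a NON-SMC ELEMENT 3-like protein by its best NR hit. The place of all 3 among the reductases rests on the word of the description and is uncertain.

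Of the 19 unigenes of cysteine synthesis, 0 were called. By adjusted p alone 3 were lower and 0 higher, beside 10.6% and 10.9% of unigenes with an assigned gene. The 14 with at least 20 reads had a median log2 ratio of -0.08, with 4 above and 10 below 0. Of all 22247 unigenes with an assigned gene and at least 20 reads, 10834 lay above and 11413 below 0. The most abundant of the 19, comp44794_c0 (chrC05:42193496-42195461), was described in Swiss-Prot as DES1, a bifunctional cystathionine gamma-lyase/cysteine synthase. In NR it was a putative cysteine synthase. Its place among the enzymes that make cysteine rests on these descriptions and was not tested. This unigene fell from 9101 to 8112 reads, or from 167 to 151 RPKM, a ratio of 0.904 (0.878 to 0.932, exact adjusted p = 1.30e-09). A unigene described only as cysteine synthase, comp48677_c0 on unplaced sequence, fell from 2598 to 2342 reads, with a ratio of 0.915 (0.865 to 0.968).

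Other enzymes of this family did not pass the test. CYSC1, the mitochondrial enzyme that uses cysteine to detoxify cyanide, had 4458 and 4432 reads in comp52612_c0. The plastid cysteine synthase OASB had 2158 and 2051 reads in comp45061_c0, a ratio of 0.964 (0.907 to 1.02). The DES1-described comp34482_c0 had the highest ratio of the group among unigenes with at least 100 reads, 1.13 (0.763 to 1.69), with 51 and 57 reads. All 12 unigenes of this family summed to 495 RPKM in the brown and 470 RPKM in the yellow library.

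Serine acetyltransferase supplies the carbon skeleton of cysteine. SAT2 (comp47295_c0, chrC03:32946845-32948876) fell from 354 to 271 reads, a ratio of 0.777 (0.661 to 0.912, exact adjusted p = 0.0152). SAT3 had 397 and 321 reads, a ratio of 0.820 (0.706 to 0.953) that just missed the threshold at an exact adjusted p of 0.0554. SAT5 had 1008 and 950 reads in its larger unigene. The 7 unigenes together gave a ratio of 0.889 (0.831 to 0.952), and all 5 with at least 20 reads were below 0 in log2 ratio.

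Of the 5 unigenes of methionine synthesis and turnover, 0 were called. By adjusted p alone 1 was higher, beside 10.9% of unigenes with an assigned gene. The higher one was CGS1, cystathionine gamma-synthase, which commits carbon to methionine. Its unigene comp54241_c0 (chrA05:23018468-23021052) rose from 4512 to 4748 reads, a ratio of 1.07 (1.02 to 1.11, exact adjusted p = 0.0141). Cystathionine beta-lyase, which makes homocysteine in the next step, had 960 and 912 reads in comp52269_c0, a ratio of 0.964 (0.879 to 1.06). Methionine gamma-lyase (MGL), which breaks methionine down, had 982 and 1049 reads, a ratio of 1.08 (0.993 to 1.18). MMT1, which makes the transported form S-methylmethionine, had 1489 and 1392 reads, a ratio of 0.948 (0.881 to 1.02).

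The SAM enzymes held 0.376% of all reads in the brown and 0.368% in the yellow library, more than all other roles combined, and 0 of 17 unigenes was called. SAMDC3 (comp51015_c0, chrA03:13680335-13681441) had 51734 and 50951 reads, a ratio of 0.999 (0.987 to 1.01). At this depth its difference was bounded more narrowly than that of any other member. SAM synthase 3 (METK3, comp50890_c0 at chrC04:6283861-6285092) was second, with 449 and 418 RPKM, and fell from 30500 to 28029 reads, a ratio of 0.932 (0.917 to 0.948, exact adjusted p = 1.17e-15).

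SAM synthase 1 went the other way. The METK1-described unigene comp43674_c2 (chrC04:355048-356223) rose from 490 to 666 reads, a ratio of 1.38 (1.23 to 1.55, exact adjusted p = 1.22e-06). The other 2 pieces of the same gene had 62 and 79 reads, and 26 and 37 reads, each with a ratio above 1. SAM synthase 2, comp41230_c0 on C03, had 919 and 985 reads. The 6 SAM synthase unigenes summed to 587 RPKM in the brown and 573 RPKM in the yellow library, of which METK3 made up most.

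The nucleosidases MTN1 and MTN2 recover methionine from the by-product of polyamine and ethylene synthesis. MTN1 (comp48472_c0) had 2958 and 2843 reads, a ratio of 0.975 (0.926 to 1.03), although its best NR hit was an ER lumen protein receptor. MTN2 (comp45468_c0) had 74 and 67 reads. The 2 unigenes described as mitochondrial SAM carriers summed to 1432 and 1384 reads. The lowest log2 ratio among all members with at least 20 reads, -1.18, was that of a SAMDC2 piece on A03, comp36701_c1, with 22 and 9 reads, which was not called (exact adjusted p = 0.136). A second piece of that gene had 51 and 32 reads and was not called either.

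**Figure D3:**
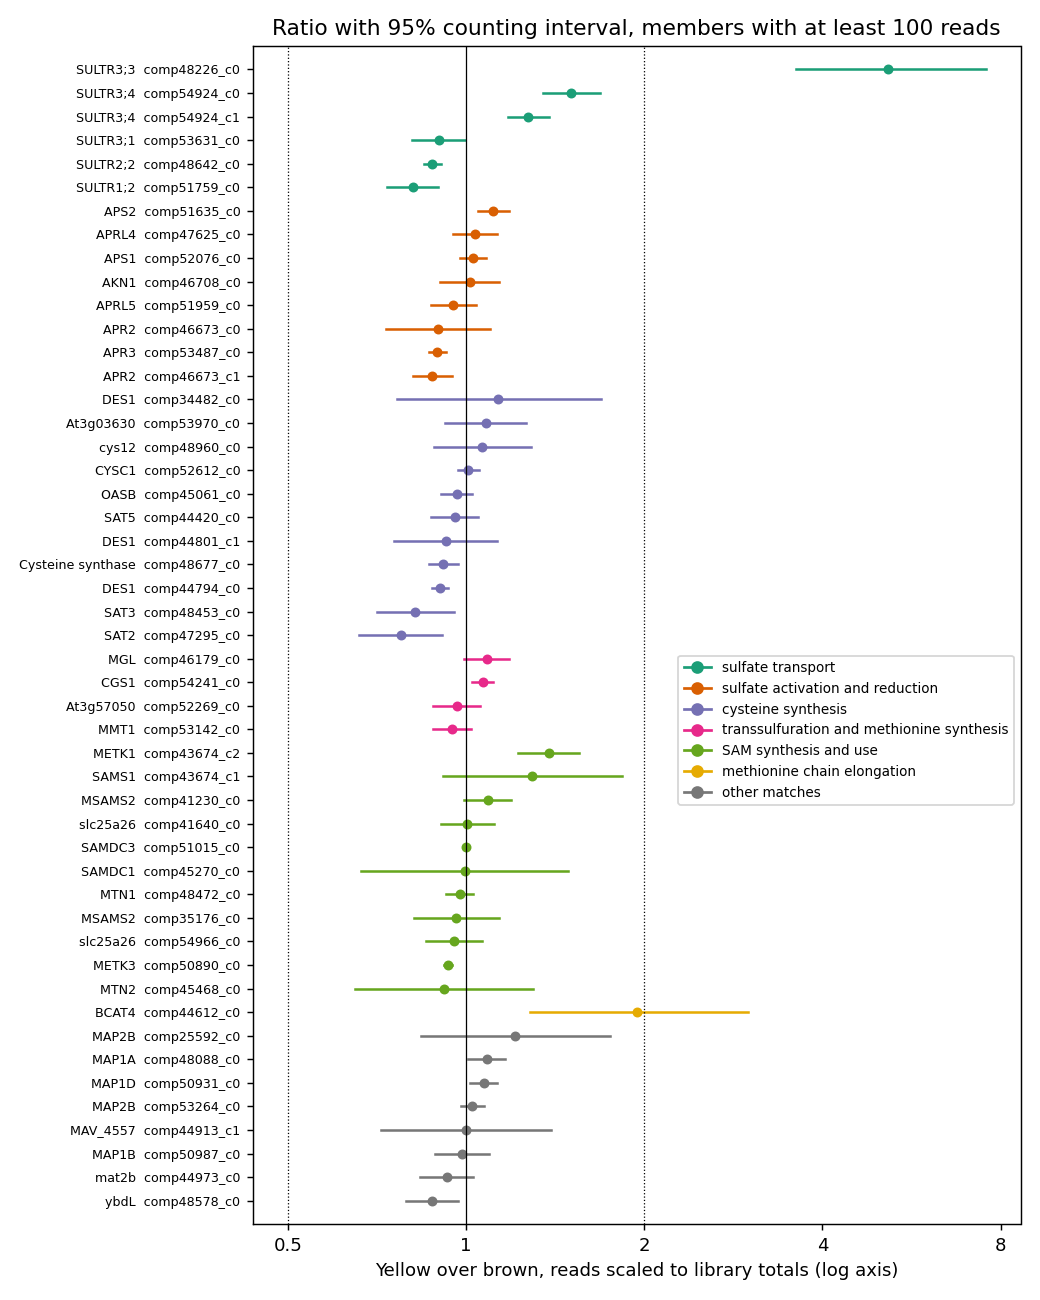
Ratio of yellow over brown (log axis) of the 49 unigenes with at least 100 reads, by role, with bars for 95% intervals that cover counting error only. The solid line marks equal levels and the dotted lines a 2-fold difference. SULTR3;3 lies at 5.16 and BCAT4 at 1.94, and most others lie close to 1.

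Methionine chain elongation had the highest median log2 ratio of the roles, 0.94 over 3 unigenes with at least 20 reads, at low levels. BCAT4, the aminotransferase that starts the elongation of methionine in *Arabidopsis*, had 36 and 69 reads in comp44612_c0 (chrA03:17272180-17274628), or 1.39 and 2.70 RPKM. The ratio of 1.94 (1.28 to 3.0) passed the test by its exact adjusted p of 0.0105 and fell just short of 2-fold. MAM enzymes add the carbon units to the chain. The MAM1 unigene comp267212_c0, on unplaced sequence (Un_random, 81019833 to 81023055), was called with 0 reads in the brown and 8 in the yellow library, at least 2.71-fold higher with 3 reads for the 0 (exact adjusted p = 0.0274), while the interval of the ratio began at 1.73. That call was lost under median-ratio scaling (adjusted p = 0.0507) and with the DEGseq formula (adjusted p = 0.0757).

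The other MAM unigenes had few reads and none was called. A second MAM1 unigene, comp39211_c0 on C01, had 10 and 21 reads. MAM2 (comp180637_c0) had 4 and 12, and MAM3 (comp27454_c0) 18 and 23. All 4 MAM unigenes thus had more reads in the yellow library, and summed to 32 and 64 reads, a ratio of 2.03 (1.31 to 3.21).

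CYP79F1, which converts the elongated methionine into the aldoxime of the glucosinolate core, lay in the opposite direction. Its longer piece, comp23481_c0 at chrA06:5753384-5755569, had 34 reads in the brown and 16 in the yellow library, a ratio of 0.477 (0.246 to 0.889) that did not pass the test (exact adjusted p = 0.0833). The shorter piece had 5 and 3 reads. Both pieces together gave a ratio of 0.494 (0.270 to 0.876). The levels of chain elongation and of CYP79F1, at most 2.70 RPKM in a library, were far below those of the sulfur and SAM enzymes.

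Of the 15 unigenes that matched by a word alone, 1 was called. It was comp15214_c0 on A02, described as a probable SAM-dependent methyltransferase (At5g38780), with 0 and 9 reads, at least 3.04-fold higher with 3 reads for the 0 (exact adjusted p = 0.0153), while the interval of the ratio began at 2.00. Its best NR hit was a defence-related protein of *Brassica carinata*. The methionine aminopeptidases, which remove the first methionine of new proteins, were not called. MAP2B had 3779 and 3817 reads in comp53264_c0. MAP1D (comp50931_c0) had a ratio of 1.07 (1.02 to 1.13) and MAP1A (comp48088_c0) one of 1.08 (1.01 to 1.16), and neither passed the test. The ybdL-described aminotransferase comp48578_c0 had 836 and 723 reads, a ratio of 0.877 (0.793 to 0.970, exact adjusted p = 0.0635). A MAP2B unigene on C06, comp25592_c0, had 57 and 68 reads.

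Other genes of the same pathways, 88 unigenes picked by description, were set beside the members. Of them, 2 were called higher and 2 lower, beside 3.28% and 1.47% of all unigenes. By the adjusted p alone 12 were higher and 8 lower, beside 8.57% and 7.30%. Both unigenes called lower were described as MYB28, the activator of aliphatic glucosinolate genes, and were assigned to adjacent gene models on C09. They had the same best NR hit and may be pieces of a single gene, so they cannot be taken as independent. The first, comp10172_c0 (chrC09:3099232-3099846), fell from 41 to 14 reads, a ratio of 0.346 (0.174 to 0.649, exact adjusted p = 0.00379). The second, comp163450_c0 (chrC09:3099905-3100634), had 13 reads in the brown and 0 in the yellow library, at least 4.27-fold lower with 3 reads for the 0 (exact adjusted p = 0.00266). With an assumed coefficient of variation of 0.2 both calls were lost (edgeR's exact test, adjusted p = 0.394 and 0.0760). The unigene comp45498_c0, described as MYB29 in Swiss-Prot but as MYB51 by its best NR hit, had 140 and 151 reads, a ratio of 1.09 (0.864 to 1.39). In *Arabidopsis*, EIL3 is a regulator of the sulfur deficiency response. Its unigene comp52743_c1 had 884 and 775 reads, a ratio of 0.889 (0.807 to 0.981) that did not pass the test. MYB28 and CYP79F1 thus had fewer reads in yellow seeds, whereas the BCAT4 and MAM unigenes had more.

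For side-chain elongation, other aminotransferases, the isopropylmalate enzymes and the transporter BASS5 gave 16 unigenes. Of these, 1 was called higher, beside 2.69% of unigenes with an assigned gene. By adjusted p alone 1 was higher and 3 lower, beside 10.9% and 10.6%. The 16 were picked by description, which does not place the aminotransferases named here in the elongation of methionine. The called one was branched-chain aminotransferase-like protein 1 (comp42347_c0), with 50 and 117 reads, a ratio of 2.37 (1.69 to 3.38). Its call was lost at an assumed coefficient of variation of 0.2. The mitochondrial BCAT1 (comp47143_c0), chosen after its values were seen, fell from 2919 to 2242 reads, a ratio of 0.779. The large subunit of isopropylmalate dehydratase (comp52359_c0) had 7204 and 7217 reads, and the small subunit (comp45659_c0) fell from 2291 to 2052, a ratio of 0.909 (0.856 to 0.965).

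The later steps of glucosinolate synthesis had 0 called unigenes. CYP83B1 (comp42015_c0), a cytochrome of the indolic core, had 43 and 54 reads. The sulfotransferase SOT18, which completes the core, fell from 3638 to 2787 reads in comp45789_c0, a ratio of 0.777 (0.740 to 0.817). SOT17 (comp40440_c2) had 105 and 72 reads, and all 16 sulfotransferase unigenes of this kind summed to a ratio of 0.791 (0.756 to 0.828). By adjusted p alone 2 of the 16 were lower and 0 higher, beside 10.6% and 10.9% of unigenes with an assigned gene.

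UGT74C1, a glycosyltransferase of the core, rose from 331 to 530 reads in comp41307_c0, a ratio of 1.62 (1.41 to 1.87). Its second unigene, comp34265_c0, had 26 and 46 reads and did not pass the test, and comp34265_c1, of the same assigned gene, had 12 reads in either library. UGT74B1 (comp45037_c0), the other glycosyltransferase of this step, had 111 and 108 reads, a ratio of 0.987 (0.750 to 1.30). The 2 most abundant side-chain oxygenases, FMO GS-OX-like 2 (comp33457_c0) and FMO GS-OX-like 4 (comp47419_c0), had ratios of 0.914 (0.850 to 0.983) and 0.933 (0.821 to 1.06) and did not pass. FMO GS-OX5 (comp45783_c0) rose from 391 to 603 reads, a ratio of 1.56, and FMO GS-OX2 (comp35214_c0) from 211 to 310, a ratio of 1.49. Both were chosen after their values were seen. The 8 oxygenase unigenes summed to a ratio of 1.06 (1.00 to 1.12). By adjusted p alone 2 were higher and 0 lower, beside 10.9% and 10.6% of unigenes with an assigned gene.

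The branch from aspartate supplies carbon to methionine, and its list also holds threonine synthases, whose product is threonine. Of its 11 unigenes, 6 were higher by adjusted p and 0 lower, beside 10.9% and 10.6% of unigenes with an assigned gene. Threonine synthase 1 (comp54688_c1), among these 6, rose from 3062 to 3390 reads, a ratio of 1.12 (1.07 to 1.18). The 11 summed to a ratio of 1.17 (1.15 to 1.20). AKHSDH2, the bifunctional aspartokinase that begins this branch, rose from 4019 to 4868 reads in comp52618_c0, a ratio of 1.23 (1.18 to 1.28). Homoserine kinase (comp52740_c0) rose from 1710 to 2020 reads, a ratio of 1.20 (1.12 to 1.28). The only called one, aspartokinase 3 (comp318421_c0), had 0 and 8 reads, and its call was lost under median-ratio scaling (adjusted p = 0.0507) and with the DEGseq formula (adjusted p = 0.0757).

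Methionine synthase is the last enzyme of methionine synthesis. Its most abundant unigene, comp55279_c1, had 20694 and 20887 reads, a ratio of 1.02 (1.00 to 1.04) that did not pass the test, and comp55279_c0 rose from 9480 to 11049, a ratio of 1.18 (1.15 to 1.22). All 12 unigenes summed to a ratio of 1.08 (1.06 to 1.09). Adenosylhomocysteinase, which clears the by-product of methylation, had 19521 and 18875 reads in SAHH1 (comp53954_c0), and 143 and 158 in SAHH2 (comp43552_c0).

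Sulfite reductase (comp51899_c0) had 3711 and 3560 reads, a ratio of 0.973 (0.929 to 1.02). Sulfite oxidase (comp51580_c0), which turns sulfite back into sulfate, had 3017 and 2942. Glutathione is made from cysteine in a pair of steps. The enzyme of the first, GSH1 (comp53618_c0), had 5736 and 5418 reads, a ratio of 0.958 (0.923 to 0.995) that did not pass the test. The enzyme of the second, GSH2 (comp54043_c0), fell from 1596 to 1257 reads, a ratio of 0.799 (0.742 to 0.861), and the 6 unigenes summed to 0.929 (0.899 to 0.960).

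**Figure D4:**
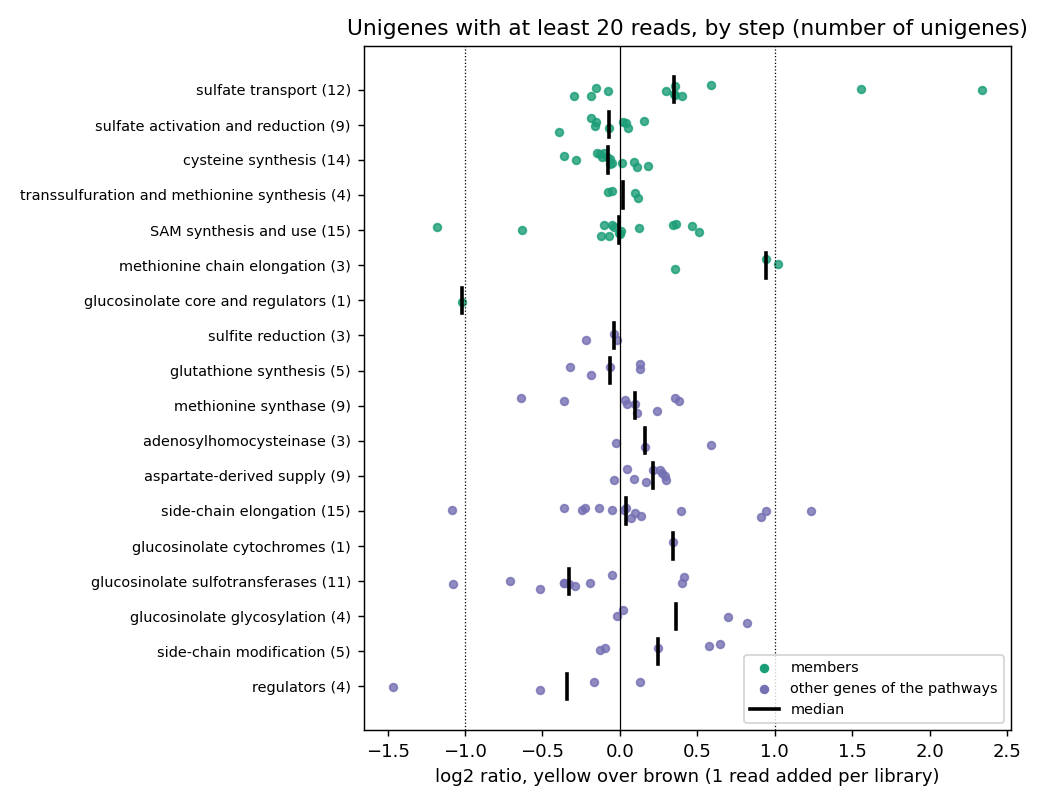
Log2 ratio of yellow over brown, with 1 read added per library, of the unigenes with at least 20 reads, by step of the pathways. Green points are the unigenes of the main list, purple points other genes of the same pathways, black bars medians, and dotted lines a 2-fold difference. The medians lie close to 0 from sulfate reduction to SAM use, at 0.94 for chain elongation (3 unigenes) and at -0.33 for the sulfotransferases (11 unigenes).

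Whole seeds mix seed coat, endosperm and embryo, and fewer cells of a type and less RNA per cell cannot be told apart in them. For the marker counts below, 2.69% of unigenes with an assigned gene were called higher and 1.32% lower. By adjusted p alone these shares were 10.9% and 10.6%. Of the 27 unigenes of storage and oil body proteins, taken as embryo markers, 19 were called higher and 2 lower, with summed RPKM of 559 in the brown and 2259 in the yellow library. A single napin unigene, comp51403_c0, made up 136 and 915 RPKM of these sums. The embryo list holds 3 oleosins of the pollen coat type (Oleosin-B), and without them, left out after their values were seen, 18 of 24 were called higher and 1 lower. Green tissue markers (chlorophyll-binding proteins and the RuBisCO small chain) had 0 of 20 called, 12 higher by adjusted p alone and 0 lower, and summed to 3554 and 4597 RPKM. Endosperm markers had 0 of 15 called and summed to 122.1 and 108 RPKM. By adjusted p alone 1 was higher, FIE (comp43646_c0), which made up 47.0 and 50.8 RPKM of these sums. Lower by adjusted p was 1, bHLH95 (comp42404_c0), with a ratio of 0.708 (0.642 to 0.781). The other bHLH95 unigenes, comp41327_c0 and comp7490_c0, had ratios of 0.743 and 0.769 and did not pass. Of the 10 endosperm unigenes with at least 20 reads, 5 lay above and 5 below 0 in log2 ratio. Of the seed coat markers, 2 of 37 were called higher and 1 lower, and by adjusted p alone 5 were higher and 4 lower. Their sums were 824 and 886 RPKM. Without the TT12-described transporters 0 of 10 were called, with 553 and 610 RPKM. The laccase TT10 (comp48255_c0) made up 476 and 551 of these and was itself higher by adjusted p, with a ratio of 1.16 (1.14 to 1.18). Without it the other 9 summed to 77.5 and 58.9 RPKM, with 2 lower by adjusted p, TT16 and anthocyanidin reductase, and 0 higher. The TT12-described unigenes and TT10 were left out with the values known. The part of these tissues in the differences of SULTR3;3, BCAT4, MAM, MYB28 and the other genes above was not tested.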

How the data were processed

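RNA-seq of 26-day-old whole seeds was analysed, with 1 library per line. The authors built unigenes from both libraries with Trinity. Which aligner and which counting program they used is not given in the sources used here. Deposited were the authors' estimated counts of reads, unscaled, and their RPKM, which is the count over unigene length and library total. Gene positions are those of the Darmor-bzh genome as the deposited table gives them.

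Counts were rounded to whole numbers and compared with Fisher's exact test, two-sided (SciPy 1.17.1), adjusted by Benjamini-Hochberg over 50366 unigenes. The software was R 4.3.3 with DESeq2 1.42.0 (size factors only) and edgeR 4.0.16, and Python 3.11.15 with pandas 2.3.3 and numpy 2.4.6. The scripts were tested on simulated data. A count of 0 was bounded with 3 reads.

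The members, the roles and the lists of other genes and of markers were chosen with earlier results of these data known. Named are, in each role, every called member, up to 4 with the highest mean RPKM, and those with the highest and lowest ratio among members with at least 100 reads, and of the other genes every called one and up to 2 per step. Further members, SAT3, SAT5, AKN1, the APR-like, FMO GS-OX5, BCAT1 and the SAMDC2 unigenes among them, were named after their values were seen. Alternatives were other scalings, tests, thresholds and read minimums, an assumed biological coefficient of variation in edgeR's exact test, and sums per gene. A further 9 unigenes matched the descriptions without an assigned gene and were left out. Sequences of the unigenes were not used here.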

Additional observations from a re-analysis of the deposited data

How the results depend on the processing

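No paired analysis was possible because each line has 1 library. TMM scaling, median-ratio scaling and totals over unigenes with an assigned gene moved all log2 ratios by 0.01, -0.02 and 0.01. Of the members, 5 were called higher. When edgeR's exact test assumed a variation between seed samples of 0.1, 0.2 and 0.4, 1, 1 and 0 were, 2 with at least 20 reads, 1 with at least 100, and 11 without the log2 threshold, which also gave 8 lower in place of 0. Of the other pathway genes, 2 were called higher and 2 lower. The higher ones numbered 1 under median-ratio scaling, 1 by the DEGseq formula, 1, 0 and 0 with the assumed variation, 1 with at least 20 and 1 with at least 100 reads, 12 without threshold and 4 at 1.5-fold. The lower ones numbered 0 and 0 at a variation of 0.2 and 0.4, 1 with at least 20 reads, 0 with at least 100 and 8 without threshold. Of all unigenes, 1650 were called higher and 738 lower. With the assumed variation these were 826, 348 and 88 higher and 370, 98 and 18 lower. With at least 20 reads they were 943 and 441, with at least 100 reads 388 and 160, and without threshold 4314 and 3676, and 1304 were lower at 1.5-fold. With counts summed per gene, 4 of the 78 genes were called higher. The call of SULTR3;3 (comp48226_c0) was lost only at an assumed variation of 0.4 (adjusted p = 1.0), and that of its A09 copy at 0.1. Of 573 values of the 66 unigenes that the naming rule took, 544 kept direction and side of the threshold, 26 lost the call and 3 changed sign: CYSC1 (comp52612_c0) at -0.0084 under median-ratio scaling, and SAMDC3 (comp51015_c0) at 0.0055 under TMM scaling and 0.012 with totals over unigenes with an assigned gene. The other tests and the read minimums used the same ratios, so only the scalings could change a direction. Most of the 66 were not called and so had no call to lose. The median log2 ratio of the members stayed within its binomial interval over members with at least 20 reads, under other pseudocounts and minimums. That interval describes the spread among members, not between seed samples, and takes members as independent, which pieces of one gene are not. With 1 library per line, depth limits the counts but the variation between seed samples is unknown.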
